A study of Mus musculus with 23 samples.

Results

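The genes described here were 10 markers of the meninges and of brain fibroblasts, chosen by name: Col1a1, Col1a2, Col3a1, Dcn, Lum, Igf2, Slc6a13, Slc22a6, Ptgds and Aldh1a2. They are 10 of the 19733 genes in a table of hippocampal RNA sequencing from 23 mice, and all 10 were found. Male wild-type C57BL/6J mice acquired at 6 weeks of age were fed a liquid AIN93M diet for 16 weeks, followed by 1 week of behavioral tests. The 9 Ctrl mice received the control diet and a daily gavage of 0.05% CMC-Na (sodium carboxymethyl cellulose), the vehicle. The 7 EtOH mice received the ethanol diet and the vehicle, and the 7 EtOH-UA mice received the ethanol diet with urolithin A (UA), a gut microbial metabolite of ellagitannins, at 200 mg/kg/day in the vehicle. UA ran alongside the ethanol diet from its start, and UA on the control diet was not analysed here. Nothing in the labels says how much of the brain surface was left on the dissected tissue.

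The meninges are the membranes that cover the brain. Their inner layers, the arachnoid and the pia, hold fibroblasts that lay down collagen, carry solutes between cerebrospinal fluid and blood, and release retinoic acid and growth factors. Similar fibroblasts line the larger vessels that enter the brain, and the choroid plexus, the tissue that secretes cerebrospinal fluid, has a fibroblast core under its epithelium. The hippocampus itself is mostly neurons and glia, and it touches both pia and choroid plexus. In bulk tissue, fewer cells of a type and less RNA per cell cannot be told apart.

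The members fall into 5 roles. Col1a1 and Col1a2 encode the chains of type I collagen, and Col3a1 encodes that of type III collagen. Dcn (decorin) and Lum (lumican) encode small proteoglycans that bind collagen fibrils. Igf2 encodes an imprinted growth factor that the adult brain makes mainly in meninges and choroid plexus. Slc6a13 encodes a transporter of GABA and taurine, and Slc22a6 encodes an exchanger of organic anions. Ptgds encodes the lipocalin-type prostaglandin D synthase, an abundant protein of cerebrospinal fluid, and Aldh1a2 encodes an enzyme that makes retinoic acid.

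Promoter sequences are shown for Ptgds, Aldh1a2, Slc6a13, Slc22a6 and Col1a2, because these 5 genes rose and fell together most closely between mice, as described further on. Each is the 250 bases before an annotated start in RefSeq on GRCm38.p6, read 5′ to 3′ on the strand of the gene. Of the 10 members, 7 matched an entry. The windows are chr2:25469750-25469999 (minus strand) for Ptgds, chr9:71215539-71215788 for Aldh1a2, chr6:121300038-121300287 for Slc6a13, chr19:8617746-8617995 for Slc22a6 and chr6:4505368-4505617 for Col1a2, the last 4 on the plus strand. For Slc6a13, which has 3 entries, the outermost was used, and the Ptgds window lies before a start inside the annotated gene. Capitals mark 3 motifs searched on both strands: the TATA box (TATAAA), the CCAAT box (CCAAT) and the GC box (GGGCGG).
Ptgds: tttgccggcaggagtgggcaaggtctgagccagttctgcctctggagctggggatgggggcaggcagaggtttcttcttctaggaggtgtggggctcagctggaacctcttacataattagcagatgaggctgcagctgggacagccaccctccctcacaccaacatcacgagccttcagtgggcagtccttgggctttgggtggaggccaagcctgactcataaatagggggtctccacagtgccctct
Aldh1a2: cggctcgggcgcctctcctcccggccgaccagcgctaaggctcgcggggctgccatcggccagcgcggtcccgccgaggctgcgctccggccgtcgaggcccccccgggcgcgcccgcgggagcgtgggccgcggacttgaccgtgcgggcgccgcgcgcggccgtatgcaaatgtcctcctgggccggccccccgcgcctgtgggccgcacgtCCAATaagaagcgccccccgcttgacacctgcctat
Slc6a13: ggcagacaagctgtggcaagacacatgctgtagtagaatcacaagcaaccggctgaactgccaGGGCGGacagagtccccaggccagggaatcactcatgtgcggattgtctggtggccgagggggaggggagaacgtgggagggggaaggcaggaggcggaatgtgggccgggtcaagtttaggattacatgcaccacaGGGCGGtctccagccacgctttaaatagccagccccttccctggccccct
Slc22a6: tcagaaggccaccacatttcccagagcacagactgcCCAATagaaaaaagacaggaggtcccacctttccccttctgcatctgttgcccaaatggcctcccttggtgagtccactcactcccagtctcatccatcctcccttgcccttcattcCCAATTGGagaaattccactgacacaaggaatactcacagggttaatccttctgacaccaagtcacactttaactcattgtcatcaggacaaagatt
Col1a2: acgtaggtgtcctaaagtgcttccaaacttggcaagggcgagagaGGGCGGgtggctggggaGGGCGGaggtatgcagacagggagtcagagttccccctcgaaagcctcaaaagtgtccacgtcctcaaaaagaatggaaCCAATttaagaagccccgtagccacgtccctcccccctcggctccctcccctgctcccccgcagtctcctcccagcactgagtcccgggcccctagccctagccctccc

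These 5 windows held no motif in common. The Ptgds window held none of the 3. Aldh1a2 had a CCAAT box 36 bases before its start, and Slc6a13 had GC boxes 187 and 50 bases before. The Slc22a6 window had CCAAT boxes at 214 and 97 bases, and a match on the other strand at 94 bases that overlaps the nearer one. That of Col1a2 had a CCAAT box at 109 bases and GC boxes at 205 and 188 bases. Of the members not shown, Col3a1 had a TATA box at 117 bases and Igf2 had no match in the outermost of its 4 windows. Among 32851 windows of this length, 33.8% held a CCAAT box, 32.7% a GC box and 12.4% a TATA box. The windows also differed in base composition, from 48.4% G and C in Slc22a6 to 77.6% in Aldh1a2. These matches are a description of the letters and not of binding.

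The deposited values are FPKM: fragments of a gene divided by the length of its transcript and by the size of the library. Summed FPKM ranged from 327896 to 404609, with the highest sum in an EtOH-UA mouse, and 16996 to 17413 genes were above 0. The median correlation of a mouse with the others of its group lay between 0.975 and 0.988. Steps between the lowest values corresponded to about 17.0 fragments per kilobase at 1 FPKM (quartiles 15.9 and 17.6 over 45 genes). Of the 12 genes listed for hippocampal neurons, none was at 0 in a mouse. Camk2a had a mean of 851 FPKM, Slc17a7 of 429 and Neurod6 of 104. Other genes of this list varied more between mice. Fibcd1 ran from 3.62 to 34.25 FPKM and Spink8 from 5.49 to 32.75, each lowest in an EtOH-UA mouse. Prox1 ran from 5.66 to 23.18 FPKM, lowest in a Ctrl mouse. Meningeal markers were low but present. Of 33 meningeal cell genes, 5 were at 0 in at least 1 mouse, among them Slc47a1, Foxc2, Wnt6 and Six2.

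All 10 members were above 0 in every mouse. On the FPKM scale, which is per length, Ptgds had the highest level, with a mean of 361 over the 23 mice. Dcn followed at 29.7 and Igf2 at 20.2, and Dcn exceeded Igf2 in 20 of 23 mice. Ptgds did not overlap with Dcn, whereas each further neighbor in the order overlapped in range over all mice. Slc6a13 (3.0), Aldh1a2 (2.64), Lum (2.11) and Col1a2 (1.81) lay close together. Slc22a6 (0.986) was above Col1a1 (0.838) in only 13 mice, and Col3a1 was the lowest at 0.253.

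Type I and type III collagen chains were low in this tissue. Ctrl mice had Col1a1 at 0.47 to 1.24 FPKM around a median of 0.64, EtOH mice at 0.72 to 1.04 around 0.84, and EtOH-UA mice at 0.47 to 1.23 around 0.96. All 7 EtOH mice were above the Ctrl median, yet they lay inside the Ctrl range. Ctrl mice had Col1a2 at 0.62 to 3.48 FPKM around a median of 1.36, EtOH mice at 0.99 to 2.62 around 1.67, and EtOH-UA mice at 0.94 to 2.52 around 2.1. The Ctrl mice spread wider than both ethanol-fed groups, at both ends. Ctrl mice had Col3a1 at 0.13 to 0.51 FPKM around a median of 0.31, EtOH mice at 0.13 to 0.35 around 0.21, and EtOH-UA mice at 0.14 to 0.40 around 0.23. At the mean of 0.253 FPKM this is about 24.0 fragments per mouse. Only 1 mouse of each ethanol-fed group was above the Ctrl median for Col3a1, and the ranges overlapped.

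The proteoglycans differed in level from each other by more than the groups did. Ctrl mice had Dcn at 15.18 to 48.08 FPKM around a median of 30.2, EtOH mice at 21.35 to 39.78 around 26.8, and EtOH-UA mice at 19.78 to 39.89 around 31.3. Both the highest and the lowest Dcn mouse were in the Ctrl group. Ctrl mice had Lum at 1.36 to 3.69 FPKM around a median of 1.88, EtOH mice at 1.26 to 2.53 around 1.93, and EtOH-UA mice at 1.41 to 3.52 around 2.11. The Lum medians lay between 1.88 and 2.11 FPKM, inside the range of every group.

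Igf2 and Aldh1a2 had the widest spread of the signaling members. Ctrl mice had Igf2 at 5.0 to 41.11 FPKM around a median of 9.4, EtOH mice at 9.51 to 52.44 around 18.1, and EtOH-UA mice at 8.05 to 45.08 around 19.4. All 7 EtOH mice and 6 of 7 EtOH-UA mice were above the Ctrl median, and the highest Ctrl mice lay within the ethanol-fed ranges. Ctrl mice had Aldh1a2 at 0.62 to 6.25 FPKM around a median of 2.46, EtOH mice at 0.61 to 4.36 around 2.2, and EtOH-UA mice at 0.78 to 5.22 around 3.19. The lowest mice of the 3 groups were alike, and the highest was a Ctrl mouse.

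The transporters and Ptgds showed the same picture. Ctrl mice had Slc6a13 at 1.2 to 5.64 FPKM around a median of 2.98, EtOH mice at 1.41 to 4.49 around 2.56, and EtOH-UA mice at 2.07 to 5.32 around 3.72. Ctrl mice had Slc22a6 at 0.28 to 2.47 FPKM around a median of 1.21, EtOH mice at 0.26 to 1.5 around 0.94, and EtOH-UA mice at 0.41 to 1.54 around 0.95. Ctrl mice had Ptgds at 150.06 to 841.67 FPKM around a median of 375, EtOH mice at 189.8 to 459.85 around 334, and EtOH-UA mice at 195.8 to 535.95 around 435. For all 3 genes the highest mouse was a Ctrl mouse, and no group stood apart from another. The plot of levels by group shows these overlaps.

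**Figure D1:**
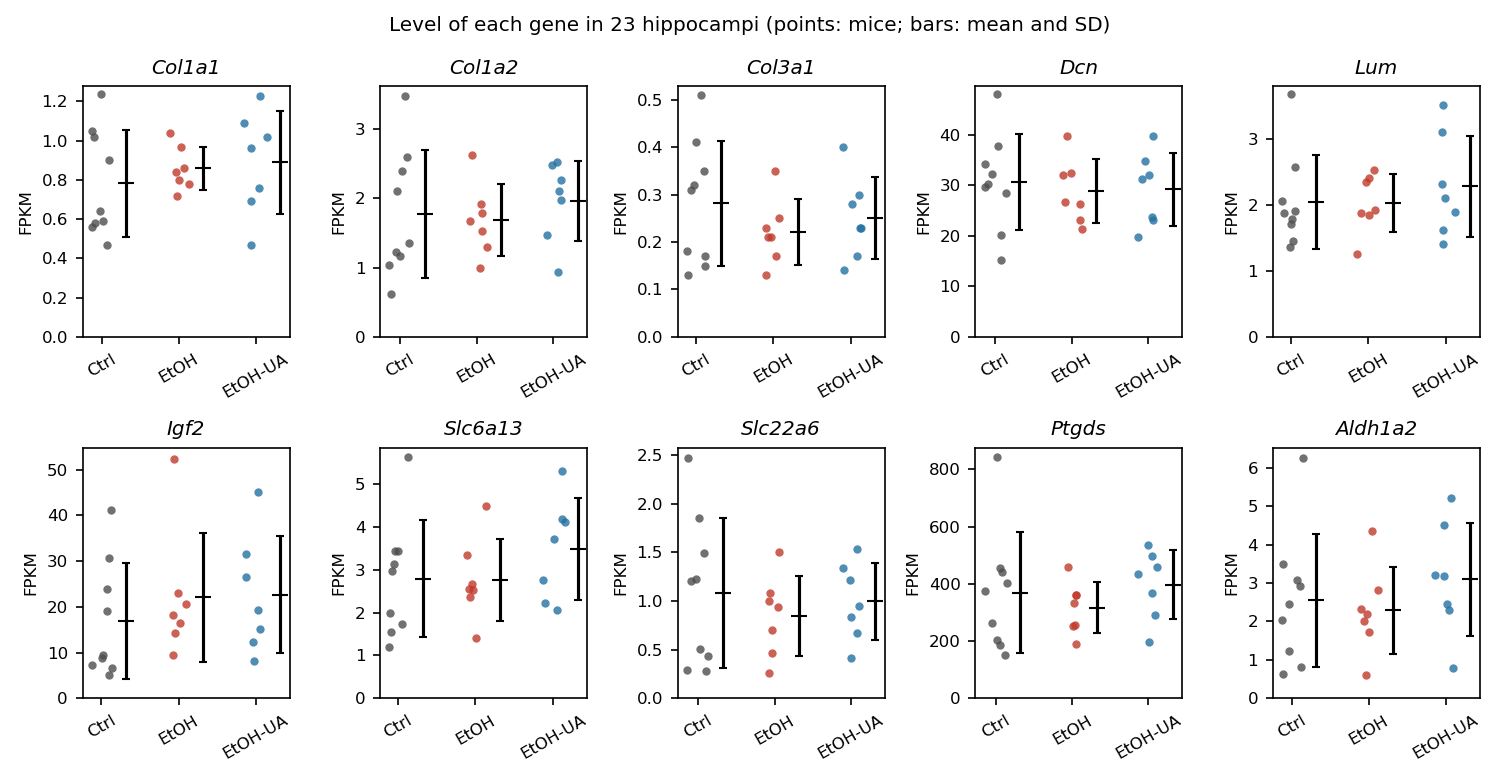
FPKM of each member in each mouse by group (points), with the group mean and SD (bars) and a separate linear axis from 0 for each gene. The 3 groups overlapped for all 10 genes, and 1 Ctrl mouse at 841.67 FPKM of Ptgds sat above every other mouse for that gene.

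The 1st question of the design is what the ethanol diet changed, and EtOH mice were compared with Ctrl mice for it. No member passed the threshold of an adjusted p under 0.05 in limma, fitted to all 15985 genes whose mean reached 0.1 FPKM, among which 0 (0%) passed and 487 (3.05%) had an unadjusted p under 0.05. None of the 10 members had an unadjusted p under 0.05. Of the 10, 5 had a higher mean of log2(FPKM + 0.1) in EtOH mice, beside 48.6% of all genes, and the median difference on the log2(FPKM + 0.1) scale was -0.01, beside 0.00 for all genes. The largest difference was in Igf2, with means on the FPKM scale of 22.1 ± 14.1 FPKM in EtOH (SD, n = 7) and 16.9 ± 12.7 in Ctrl mice (SD, n = 9). Its log2 fold change was 0.55 (SE 0.43, 95% interval -0.32 to 1.43), with p = 0.265 in a two-sided exact permutation test, the smallest of the 10, and an adjusted p of 0.999 in limma. Col3a1 had the largest difference in the other direction, at -0.20 (SE 0.21, 95% interval -0.62 to 0.23). Without the EtOH mouse of the highest Igf2, the Igf2 value was 0.31. The median of the 10 was -0.09 without the Ctrl mouse of the lowest Ptgds and 0.15 without that of the highest, and it was -0.24 with the choroid plexus genes as a covariate. For Ptgds the difference was -0.08 (95% interval -0.67 to 0.50), and for Aldh1a2 -0.03 (95% interval -0.89 to 0.84).

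Genes of the choroid plexus and of the ependyma, the ciliated lining of the ventricles, had higher means in the same comparison. All 18 choroid plexus genes had a higher mean in EtOH than in Ctrl mice, beside 48.6% of all genes. Their median log2 fold change was 1.60. Of the 18, 4 had an unadjusted p under 0.05 in limma, beside 3.05% of all genes, and none passed the adjusted threshold. The summed level of this list ran from 43.2 to 3410 FPKM among Ctrl mice, 141 to 6710 among EtOH mice and 52.4 to 8620 among EtOH-UA mice, and Cox8b was the only gene of the list at 0 in any mouse. Ttr (transthyretin), its most abundant gene, ranged from 3.88 to 7704.77 FPKM over all mice. All 12 ependymal genes were also higher in EtOH mice, with a median of 0.98. All 12 had an unadjusted p under 0.05 in limma, beside 3.05% of all genes, and none passed the adjusted threshold. Their summed level ran from 10.4 to 27.0 FPKM among Ctrl mice, 21.7 to 40.8 among EtOH mice and 11.5 to 39.7 among EtOH-UA mice, with no gene at 0. Between EtOH-UA and EtOH mice, 17 of 18 choroid plexus genes and all 12 ependymal genes had lower means. Their medians were -0.47 and -0.37. Between EtOH-UA and Ctrl mice all genes of both lists had higher means, with medians of 1.10 and 0.65. None passed the adjusted threshold in either comparison. The genes of each list share a tissue and the same mice, so their equal signs and p-values are not separate observations. With the mean of the choroid plexus list as a covariate, the log2 fold change of Igf2 between EtOH and Ctrl mice was -0.21, against 0.55 without it.

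The 2nd question is what UA changed in ethanol-fed mice. All 10 members had a higher mean of log2(FPKM + 0.1) in EtOH-UA than in EtOH mice, beside 51.2% of all genes, but none passed the threshold in limma (0% of all genes) or had an unadjusted p under 0.05 (3.27% of all genes). The median log2 fold change was 0.16, beside 0.00 for all genes. Lists of related genes did not share these signs. Of 32 meningeal cell genes tested, 17 were higher in EtOH-UA mice (median 0.01). Of 28 other fibroblast matrix genes tested, 14 were higher (median -0.01). Because the members were correlated between mice, as described below, 10 equal signs are not 10 separate observations. Aldh1a2 had the largest difference, with means of 3.10 ± 1.47 FPKM in EtOH-UA and 2.29 ± 1.14 in EtOH mice (SD, n = 7 each). Its log2 fold change was 0.41 (SE 0.44, 95% interval -0.51 to 1.33, p = 0.378, two-sided exact permutation test, limma adjusted p = 0.90). Slc6a13 was next at 0.32 (SE 0.28, 95% interval -0.26 to 0.91) and Ptgds followed at 0.31 (SE 0.30, 95% interval -0.31 to 0.93). Without the EtOH mouse that had the lowest Aldh1a2, these 3 values were 0.15, 0.18 and 0.20, and the median of the 10 was 0.08. Without the EtOH-UA mouse that had the lowest Aldh1a2 and Ptgds, Aldh1a2 was at 0.69, Ptgds at 0.47 and the median at 0.29. Col1a1 and Dcn differed least, by 0.00 and 0.01. The smallest exact permutation p of the 10 was 0.235, for Ptgds.

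Between EtOH-UA and Ctrl mice, 8 members had a higher mean of log2(FPKM + 0.1) in EtOH-UA mice, beside 51.2% of all genes. None passed the threshold in limma (0% of all genes) and none had an unadjusted p under 0.05 (3.08% of all genes). The median log2 fold change was 0.20, beside 0.00 for all genes. Igf2 differed by 0.57 (SE 0.43, 95% interval -0.31 to 1.45) and Slc6a13 by 0.38 (SE 0.27, 95% interval -0.17 to 0.93), the latter with p = 0.232 in a two-sided exact permutation test, the smallest of the 30 made over genes and comparisons. Without the EtOH-UA mouse of the highest Igf2, the Igf2 value was 0.37, and without the Ctrl mouse of the lowest Ptgds the median of the 10 was 0.09. It was 0.33 without the EtOH-UA mouse of the lowest Ptgds, where Aldh1a2 was at 0.66 instead of 0.38, and 0.02 with the choroid plexus covariate. Col3a1 and Dcn had lower log2 means in EtOH-UA mice, with values of -0.08 and -0.04. All 30 pairs of groups overlapped in range. The share of all genes that overlap in range was not computed, so this count only describes the members. Each group enters a pair of these comparisons, so they are not independent.

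**Figure D2:**
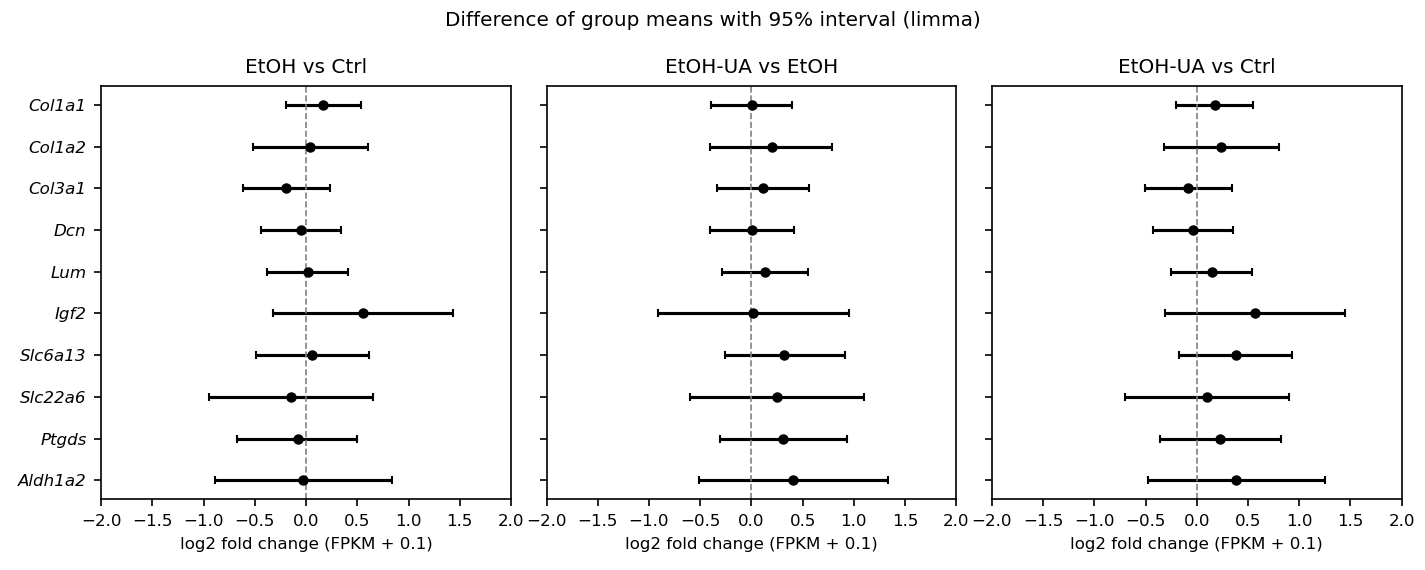
Difference of group means on the log2(FPKM + 0.1) scale for each member in each comparison (points), with 95% intervals from limma (bars). All 30 intervals include 0, the widest being those of Igf2, Aldh1a2 and Slc22a6.

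Between mice of one group the members varied far more than most genes. The SD within groups on the log2 scale had a median of 0.576 over the members, beside 0.189 over all genes tested and 0.164 over those whose mean reached 1 FPKM. Igf2 had the largest (0.922), followed by Aldh1a2 (0.906) and Slc22a6 (0.832). These SDs exceeded those of 98.4%, 98.4% and 98.0% of all genes tested. Ptgds (0.614), Col1a2 (0.579) and Slc6a13 (0.573) were in the middle. Col3a1 (0.408), Lum (0.405), Dcn (0.404) and Col1a1 (0.371) varied least, and Col1a1, the lowest, still varied more than 84.8% of genes.

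Counting error at the estimated depth was smaller than this spread. It came to a log2 SD of 0.021 for Ptgds, at about 5544 fragments per mouse, and to 0.043 for Igf2. For Aldh1a2 it was 0.175, beside an observed 0.906. Col3a1 was the exception, with a counting SD of 0.316 against an observed 0.408. These estimates rest on full annotated transcript lengths and cover counting error only.

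Single mice were high or low for many members at once. A single Ctrl mouse had the highest level of all 23 in 8 members, among them Ptgds (841.67 FPKM) and Aldh1a2 (6.25 FPKM). Another Ctrl mouse was the lowest of its group in 8 members, with Ptgds at 150.06 and Aldh1a2 at 0.62 FPKM. An EtOH mouse and an EtOH-UA mouse were each the lowest of their group in 7 members, with Ptgds at 189.8 and 195.8 FPKM, and both had the highest Dcn of their group, at 39.78 and 39.89 FPKM. Leaving Dcn aside, all 9 other members were above the group mean in 3 mice and below it in 6, and in 14 of 23 mice at least 8 of them lay on the same side. The heat map of deviations shows these mice as columns of one color.

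**Figure D3:**
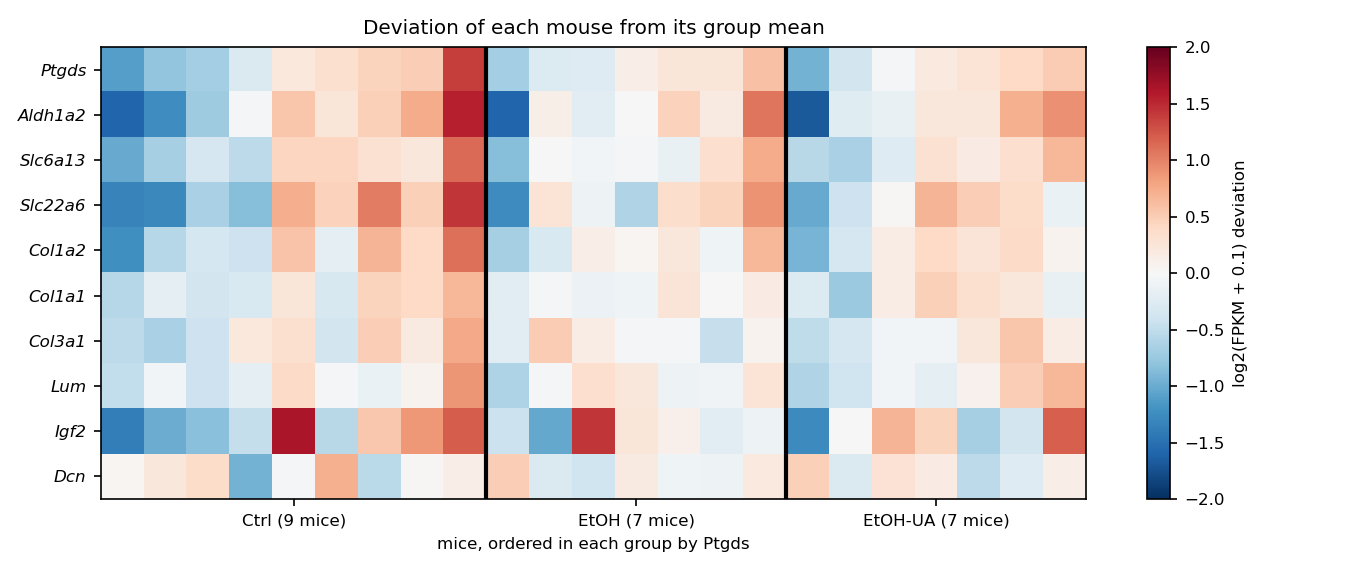
Deviation of each mouse from its group mean on the log2(FPKM + 0.1) scale, with members as rows and mice as columns, ordered within each group by Ptgds. The upper 8 rows mostly change from low to high together, Igf2 follows less closely, and Dcn does not follow.

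The shared pattern was measured as the correlation of deviations from group means over the 23 mice. All 45 pairs of members were computed, and the p-values are from 100000 permutations within groups and are not adjusted for the number of pairs. The 36 pairs without Dcn were all positive, with Pearson's r from 0.51 to 0.95 (median 0.74, median Spearman's rho 0.69), and each had a permutation p under 0.05. Without the 2 mice farthest from the median of the x measure, their median r was 0.68 and the range 0.38 to 0.94. Ptgds and Aldh1a2 were closest, with r = 0.95 and rho = 0.96 (permutation p = 1e-05, the smallest that 100000 permutations can give), and r = 0.94 without the 2 extreme mice. Ptgds also followed Slc6a13 (r = 0.92), Col1a2 (r = 0.91) and Slc22a6 (r = 0.89). The 5 genes whose promoters are printed above were linked by r of 0.85 to 0.95 in each of their 10 pairs. Leaving out the Ctrl mouse with the highest Ptgds lowered the median of the 36 pairs from 0.74 to 0.68, the lowest value with any mouse left out.

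The chains of type I collagen, which are assembled into one molecule, had r = 0.84 with each other (rho = 0.88, permutation p = 2e-05, r = 0.86 without the 2 extreme mice). Col3a1 was less closely tied to Col1a1 (r = 0.68) and Col1a2 (r = 0.74). At about 24.0 fragments per mouse for Col3a1, counting error is part of its spread. Lum followed Slc6a13 (r = 0.81) and Aldh1a2 (r = 0.80) more closely than Col1a1 (r = 0.55), though these differences in r were not tested.

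Dcn stood apart. Its 9 correlations with the other members ran from -0.50 to 0.00 (median -0.15), and 1 of them, with Col3a1, had a permutation p under 0.05 (r = -0.50, rho = -0.56, p = 0.0322, r = -0.59 without the 2 extreme mice). Dcn and Lum, related proteoglycans that are neighbors on chromosome 10, had r = -0.15 (rho = -0.18, permutation p = 0.535). With Ptgds the value was r = -0.12 (rho = -0.18, permutation p = 0.650). With about 889 fragments per mouse, counting error for Dcn was a log2 SD of 0.050, against an observed 0.404. The mean of the meningeal cell list had r = -0.25 with Dcn, and between 0.72 and 0.96 with the other members. For the list of other fibroblast matrix genes, r was -0.05 with Dcn, and between 0.56 and 0.88 with the others. The mean of the oligodendrocyte list had r = -0.55 with Dcn, and between -0.18 and 0.28 with the other members.

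**Figure D4:**
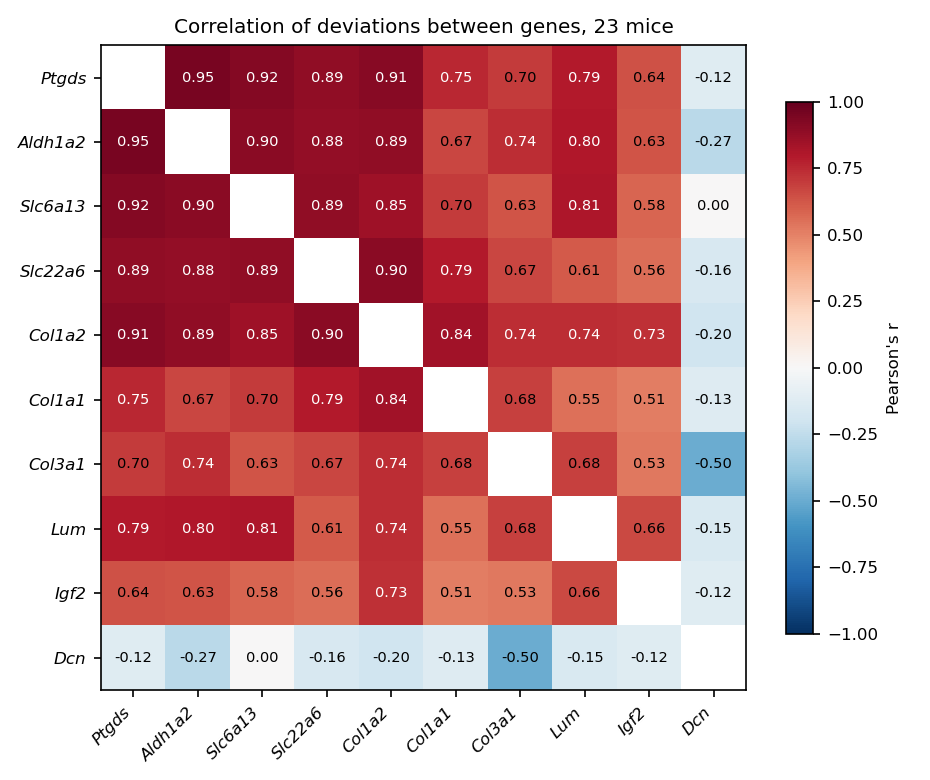
Pearson's r of deviations from group means over 23 mice for each pair of members, from -1 (blue) to 1 (red). The 36 pairs without Dcn range from 0.51 to 0.95, and the row and column of Dcn from -0.50 to 0.00.

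The same correlations were computed within each group. The median r of the 36 pairs without Dcn was 0.86 over the Ctrl mice, 0.59 over the EtOH mice and 0.73 over the EtOH-UA mice. Ptgds and Aldh1a2 had r = 0.97, 0.91 and 0.97. The 8 pairs of Igf2 with members other than Dcn had medians of 0.86, 0.04 and 0.50 in the same order. Col3a1 had r of -0.14 to 0.37 with the members other than Dcn over the EtOH mice, the lowest with Ptgds and the highest with Lum. Whether these medians differ between groups was not tested.

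Markers of other tissues were set beside the members, with the mean deviation of the 10 members as one measure and that of each list as the other. These values are descriptions over 23 mice that share their libraries, and no p is given. The mean of the members had r = 0.96 with the meningeal cell list (rho = 0.95, 0.95 without the 2 extreme mice) and r = 0.89 with the list of other fibroblast matrix genes (rho = 0.89, 0.88 without them). With the ependymal list it had r = 0.69, which was 0.53 without the 2 extreme mice. The lists of mural cells (r = 0.16), endothelium (r = 0.07), hippocampal neurons (r = -0.02), oligodendrocytes (r = -0.09) and erythroid cells (r = -0.17) had values nearer to 0. No gene of these 5 lists passed the adjusted threshold in limma in any comparison. Between EtOH-UA and Ctrl mice, 4 of the 5 erythroid genes had an unadjusted p under 0.05 in limma, beside 3.08% of all genes. Their list had a median log2 fold change of 0.66. These genes share a cell type, so they are not separate observations. The mural cell and hippocampal neuron lists each had 1 such gene in this comparison.

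Most of the meningeal genes shared the pattern one by one. Of the 32 tested, 23 (71.9%) had r of at least 0.5 with the mean of the members, beside 5.56% of the 15975 other genes, and all 32 were positive. This was not particular to meningeal genes: 17 of 18 choroid plexus genes (94.4%) and 11 of 12 ependymal genes (91.7%) also reached 0.5. The 23 meningeal genes included the transcription factors Foxc1 (r = 0.73), Tbx18 (r = 0.79) and Zic2 (r = 0.83), the gap junction gene Gjb2 (r = 0.90) and the transporter genes Slc13a4 and Slc13a3 (r = 0.85 each). The 3 most abundant genes of that list followed less: Cxcl12, which encodes a chemokine, had a mean of 20.9 FPKM and r = 0.30. Pdgfra, also a gene of oligodendrocyte precursors, had 11.5 FPKM and r = 0.49, and S100a6 had 8.0 FPKM and r = 0.16. Summed over the 33 genes, the list reached 59.6 to 108 FPKM among Ctrl mice, 68.2 to 92.7 among EtOH mice and 56.4 to 105 among EtOH-UA mice. None passed the adjusted threshold in any comparison, and the median log2 fold changes were 0.04, 0.01 and 0.01 for EtOH against Ctrl, EtOH-UA against EtOH and EtOH-UA against Ctrl mice.

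Other matrix genes divided. Of 28 tested, 12 (42.9%) had r of at least 0.5 with the mean of the members. Fmod (r = 0.92) and Ogn (r = 0.83), which encode proteoglycans of the same family as Dcn and Lum, the elastic fiber gene Fbln1 (r = 0.81), and Bgn (r = 0.76) and Mgp (r = 0.71) were among them. Of the other 11 collagen genes, Col12a1 and Col18a1 (r = 0.53 each) and Col8a1 (r = 0.51) reached 0.5, whereas Col5a1 had r = -0.01, Col5a2 -0.18, Col6a1 0.01 and Col6a2 0.00. Sparc, the most abundant of the list at 135 FPKM, had r = 0.05, and fibronectin (Fn1) r = 0.02. No gene of the list passed the adjusted threshold in limma. Between EtOH-UA and EtOH mice, 3 of the 28 had an unadjusted p under 0.05 in limma, beside 3.27% of all genes, and all had lower means in EtOH-UA mice. Col6a1 had a log2 fold change of -0.63 (SE 0.20, unadjusted p = 0.00431, adjusted p = 0.90). Col6a2 had -0.47 (unadjusted p = 0.0324) and Col5a2 -0.23 (unadjusted p = 0.0373).

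Over all 23 mice the choroid plexus list had r = 0.64 with the mean of the members (rho = 0.68, 0.56 without the 2 extreme mice). That value spans a gap, because the mice fell into separate ranges of Ttr. The ranges were cut on Ttr, itself a gene of the list, which narrows the span of the list within each. In 9 mice (5 Ctrl, 1 EtOH and 3 EtOH-UA) Ttr was 3.88 to 70.23 FPKM, and in 14 mice (4 Ctrl, 6 EtOH and 4 EtOH-UA) it was 470.2 to 7704.77 FPKM. Within the 14 mice, the mean of the members had r = 0.13 with the choroid list (rho = 0.17). Within the lower range, over the 8 mice that had a group mate there, r was 0.77 (rho = 0.71). The median r of the 36 pairs without Dcn was 0.83 in the lower and 0.64 in the higher range, so the members moved together on either side of the gap.

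The r of each member was also taken within these 2 ranges of Ttr. For Igf2 the r with the choroid list was 0.88 over the 8 mice of the lower range and 0.91 over the 14 of the higher, whereas Ptgds had 0.80 and -0.14 and Aldh1a2 0.89 and -0.08. Lum had 0.83 and 0.51, and Col3a1 0.95 and 0.41. Of the other members, Dcn had -0.72 and -0.14, and the remaining 4 had 0.55 to 0.78 in the lower range and -0.29 to 0.02 in the higher. Igf2 levels were 5.0 to 15.12 FPKM in the mice with low Ttr and 14.34 to 52.44 FPKM in those with high Ttr. Ptgds overlapped between them, at 150.06 to 496.95 and 189.8 to 841.67 FPKM. The EtOH mouse with the highest Igf2 (52.44 FPKM) had Ttr at 5628.27 FPKM and Ptgds at only 255.25 FPKM. The genes most like Igf2 were those of choroid plexus epithelium: F5, Kcnj13 and Cldn2, each with r = 0.96 over the 23 mice. The part of choroid plexus RNA in the group differences of Igf2 was not tested beyond the covariate given above.

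**Figure D5:**
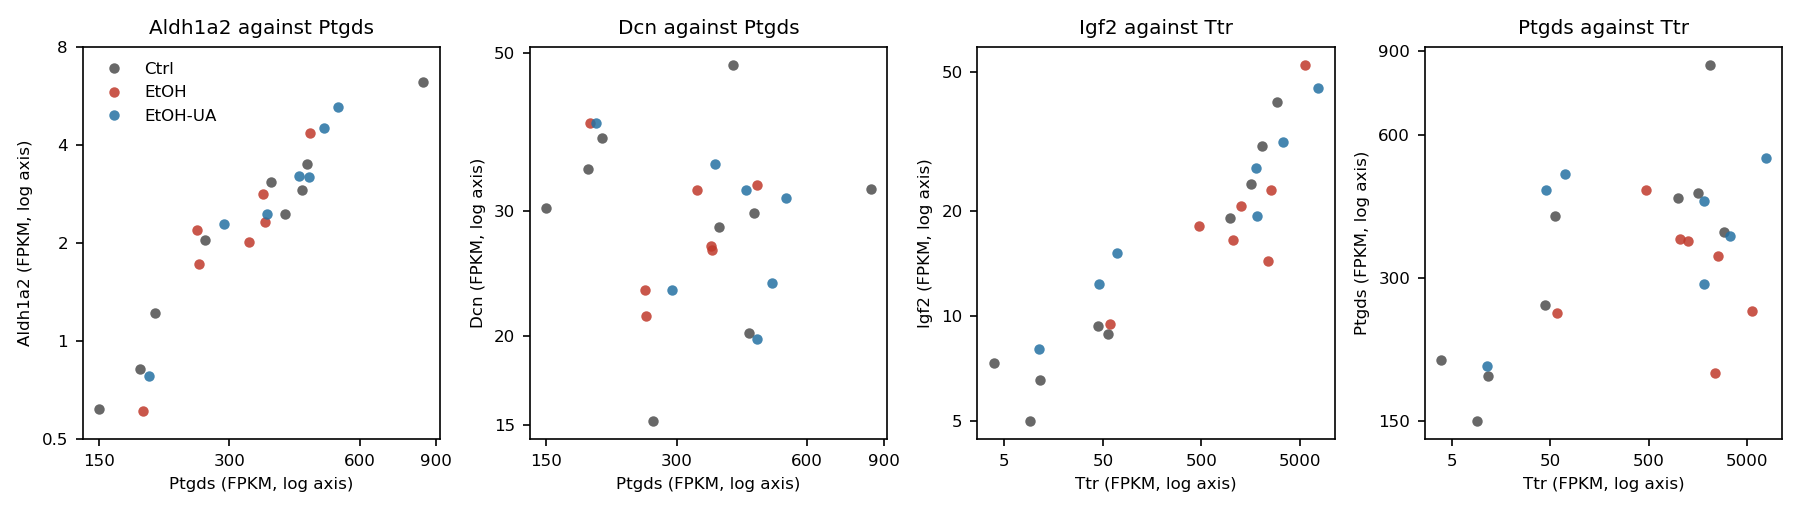
FPKM in each mouse on log axes, colored by group, for Aldh1a2 against Ptgds, Dcn against Ptgds, Igf2 against Ttr and Ptgds against Ttr. Aldh1a2 rises with Ptgds and Igf2 with Ttr, Dcn shows no trend with Ptgds, and no mouse has Ttr between 70.23 and 470.2 FPKM.

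Genes outside the members were ranked by their likeness to the mean of the 10, among those whose mean reached 1 FPKM. Among the 10 closest were Bmp7, Anxa2 and Fmod (r = 0.92 each), Gjb2 and Myoc (r = 0.90 each), Serping1 and Slc6a20a (r = 0.89 each), and Aebp1 and Bmp6 (r = 0.87 each). Bmp7 and Bmp6 encode bone morphogenetic proteins, and Serping1 encodes an inhibitor of complement. Anxa2, an annexin gene, ranged from 3.12 to 8.33 FPKM and was the closest to Ptgds (r = 0.95), Aldh1a2 (r = 0.92) and Slc6a13 (r = 0.89). Fmod, which ranged from 0.43 to 5.45 FPKM, was the closest to Slc22a6 (r = 0.94), and Mrc2, the gene of a collagen uptake receptor, to Col1a2 (r = 0.92). Col1a1 was closest to Slc13a3 (r = 0.83) and Col3a1 to Msn (r = 0.82), and Cp and Serping1 were among the 3 closest to Lum (r = 0.84 each). Dcn again had other partners: Pcbp3 (r = 0.88), Igfbp3 (r = 0.86) and Rgs12 (r = 0.82).

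Chromosomal neighbors of the members followed them in a few cases. Coordinates are from RefSeq on GRCm38.p6. Slc6a13 lies on chromosome 6 at 121300288 to 121337721, and Slc6a12, the gene of a related transporter of GABA and betaine, lies 4853 bases away and had r = 0.84 with it. Slc22a6 lies on chromosome 19 at 8617996 to 8628299, and its relative Slc22a8 lies 6161 bases away and had r = 0.82. Dcn (chromosome 10, 97479500 to 97518163) and Lum (97565501 to 97572703) are 47338 bases apart with r = -0.15. Col3a1 (chromosome 1, 45311538 to 45349706) had r = -0.32 with Col5a2, 24625 bases away. Igf2 (chromosome 7, 142650768 to 142666816) had r = 0.55 with Ins2, which lies 11840 bases away at a mean of 0.138 FPKM.

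Ptgds (chromosome 2, 25466709 to 25470110) had r = -0.11 with Paxx, 4055 bases away. Aldh1a2 (chromosome 9, 71215789 to 71296243) had r = -0.11 with Aqp9 and -0.32 with Polr2m. Col1a1 (chromosome 11, 94936224 to 94953042) had r = -0.20 with Sgca, and Col1a2 (chromosome 6, 4505618 to 4541543) had r = -0.21 with Bet1 and 0.20 with Casd1. No annotated coding gene overlapped a member.

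Genes that work with the collagens were compared with the members one by one and as lists. Of 20 tested genes of collagen making, none passed the adjusted threshold in any comparison, and 2 had r of at least 0.5 with the mean of the members: Serpinh1, the collagen chaperone (r = 0.73), and Pcolce, an enhancer of procollagen processing (r = 0.71). The abundant Ppib (78.3 FPKM), P4hb (33.5 FPKM) and Bmp1 (21.2 FPKM), which fold, hydroxylate or cleave procollagen, had r of -0.17, -0.11 and 0.47. P4ha1, a subunit of prolyl hydroxylase, had an unadjusted p of 0.0228 between EtOH-UA and EtOH mice, with a log2 fold change of 0.16 and an adjusted p of 0.90 in limma. It was the only 1 of the 20 under 0.05 in that comparison, beside 3.27% of all genes. Among 9 tested genes of collagen breakdown, 3 reached r = 0.5: Mrc2 (r = 0.86), the protease inhibitor Timp3 (r = 0.73) and the membrane protease Mmp14 (r = 0.65). Timp2, the most abundant at 87.2 FPKM, had r = -0.15. No gene of breakdown passed in any comparison. The mean log2 deviation of each list had r = 0.67 (making) and 0.69 (breakdown) with the mean of the members, and 0.55 and 0.66 without the 2 mice farthest from the median. The median r of single genes was lower, at 0.18 and 0.38.

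TGF-beta, which induces collagen genes in fibroblasts, was represented by 14 tested genes, of which none passed. The ligands Tgfb1 (r = 0.01), Tgfb2 (r = 0.05) and Tgfb3 (r = -0.10) had r near 0 with the mean of the members. Of the receptors, Tgfbr2 (r = 0.66) and Tgfbr3 (r = 0.63) were the 2 of the 14 that reached r = 0.5, while Tgfbr1 had r = 0.19. The signal carriers Smad3 (20.3 FPKM) and Smad4 (14.3 FPKM) had r = 0.41 and 0.37. The targets Ccn2 and Ccn1 had r = -0.38 and -0.39. The mean of the list had r = 0.07, or 0.41 without the 2 mice farthest from the median.

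In the IGF system, 11 genes were tested and none passed. Igf1, the ligand related to Igf2, had a mean of 1.26 FPKM and r = -0.10. The receptors Igf1r (7.83 FPKM) and Igf2r (6.63 FPKM), the latter of which clears IGF2, had r = 0.59 and 0.57. Binding proteins were more abundant, with Igfbp5 at 32.7 FPKM (r = 0.52), Igfbp4 at 24.4 (r = -0.33) and Igfbp2 at 20.8 (r = 0.46). The mean of the list had r = 0.62, whereas the median r of single genes was 0.24. Igfbp6 had an unadjusted p of 0.0335 between EtOH and Ctrl mice, with a log2 fold change of -0.40 and an adjusted p of 0.999 in limma. It was the only 1 of the 11 under 0.05 in that comparison, beside 3.05% of all genes.

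Of the 17 retinoic acid genes, none passed. Crabp2, a carrier of retinoic acid, followed the members (r = 0.85), as did the receptor gene Rarb (r = 0.68). Aldh1a1, the more abundant relative of Aldh1a2 at 22.0 FPKM, did not (r = 0.10), nor did Aldh1a3 (0.235 FPKM, r = -0.17). The nuclear receptor genes Rxrb (18.7 FPKM) and Rxra (8.16 FPKM) had r = -0.10 and 0.10. Cyp26a1 and Cyp26b1, whose products degrade retinoic acid, had r = -0.01 and 0.45. The mean of the list had r = 0.75, or 0.58 without the 2 mice farthest from the median, whereas the median r of single genes was 0.20. Aldh1a1 had an unadjusted p of 0.0231 between EtOH-UA and EtOH mice, with a log2 fold change of 0.26 and an adjusted p of 0.90 in limma. It was the only 1 of the 17 under 0.05 there, beside 3.27% of all genes. EtOH against Ctrl and EtOH-UA against Ctrl mice each had 2 such genes, beside 3.05% and 3.08% of all genes.

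Among 16 tested prostaglandin genes none passed either. The cyclooxygenase genes upstream of Ptgds, Ptgs1 (4.43 FPKM) and Ptgs2 (6.58 FPKM), had r = -0.31 and 0.07 with the mean of the members, and Hpgds, the other prostaglandin D synthase, had r = -0.02. Ptgdr, the gene of a prostaglandin D2 receptor, had r = 0.72 at a mean of 0.277 FPKM, and the prostaglandin E synthase gene Ptges r = 0.64. The abundant Ptges3 (69.6 FPKM) and Ptges2 (12 FPKM) had r = -0.44 and -0.36. For the mean of all 16, r was 0.63, whereas the median r of single genes was 0.04.

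The transport lists held abundant genes of other cells. Of 8 genes of GABA transport and breakdown, only Slc6a12 reached r = 0.5 (r = 0.89), while Abat (59.8 FPKM, r = -0.21) and Slc6a11 (33.9 FPKM, r = 0.08) of neurons and glia did not. Among 12 organic anion transport genes, Slc22a8 (r = 0.86), Slc13a3 (r = 0.85) and Abcc4 (r = 0.58) reached it. Those shared with the blood-brain barrier and other cells, Abcc5 (37.5 FPKM, r = 0.19), Slco1a4 (22.4 FPKM, r = 0.18) and Slco1c1 (22.1 FPKM, r = 0.08), did not. No gene of either list passed the adjusted threshold in any comparison. The list means had r = 0.73 (GABA transport) and 0.75 (organic anion transport) with the mean of the members. The median r of single genes was only 0.02 and 0.18. List means were not scaled by gene, so variable genes such as Slc6a12 (SD within groups of 0.886 on the log2 scale) weigh more.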

How the data were processed

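Hippocampal RNA from 23 mice (9 Ctrl, 7 EtOH and 7 EtOH-UA) was sequenced. The authors mapped cleaned reads to mm10 (Bowtie2), estimated abundance with RSEM, and deposited the result as FPKM with 2 decimals. The submitters' processing notes list Bowtie2 2.2.5, RSEM 1.2.8 and HISAT2 2.1.0. The methods name poly(A)+ RNA and the labels total RNA. For the tissue, the sequencing methods name cerebral specimens, whereas the labels and the paper's results name hippocampus. Columns were assigned to groups by name. FPKM are not counts, so the count test of the methods was not applied. Whether counting was stranded is not given in the sources used here.

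Genes whose mean reached 0.1 FPKM were fitted as log2(FPKM + 0.1) with limma 3.58.1 in R 4.3.3 (1 model of 3 groups, eBayes with trend). The p-values were adjusted by Benjamini-Hochberg over the 15985 genes. The pseudocount lowers the fold changes of genes near it. For each member, an exact two-sided permutation test of the mean difference enumerated all splits of the mice (11440 where Ctrl mice took part, 3432 for the ethanol-fed groups). Correlations used deviations from group means, with 100000 permutations within groups for the pairs (numpy 2.4.6). An adjustment over the 45 pairs and p-values for the mean of the members had been planned and are not given. The fit was tested on simulated data.

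The members, and the 9 tissue and 8 role lists, were chosen with earlier results of these data known. The text names all members, and from each list the 3 genes with the highest mean and any gene past the adjusted threshold. Some genes that this rule covers are not reported here. It also names role genes by function, the genes most alike by r and the nearest neighbors on the chromosome. Other list genes, named for high r or for an unadjusted p, were chosen after their values were seen. Alternatives were another pseudocount, filter, scaling, weighting or covariate, and each mouse left out in turn. The p-values for differences set a group difference against the spread between mice. Those for pairs set a correlation against shuffles of mice within groups.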

Additional observations from a re-analysis of the deposited data

Results flagged for a closer look

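None of the 30 groups of values, 10 genes in 3 groups of mice, had a mouse whose distance from the others passed Dixon's critical value, where chance gives about 1.5.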

How the results depend on the processing

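No member passed the adjusted threshold under any alternative: over 981 fits of single members the smallest adjusted p in limma was 0.681. Of the genes tested, 1 passed for EtOH against Ctrl mice with array quality weights (Cd24a), and leaving out 1 mouse gave 0 to 1 in each comparison. That was LOC115488002 without 1 Ctrl mouse for EtOH against Ctrl, and LOC101055676, which every mouse outside EtOH-UA lists at 0, without either of 2 EtOH-UA mice for the other comparisons. These 3 genes were named after their values were seen. Under other settings the median log2 fold change of the members was -0.24 to 0.02 for EtOH against Ctrl, 0.11 to 0.26 for EtOH-UA against EtOH and 0.02 to 0.24 for EtOH-UA against Ctrl, and the lowest of the 1st and 3rd came with the choroid plexus covariate. A filter at a mean of 1 FPKM left out Col1a1, Col3a1 and Slc22a6. Signs turned in 78 of the 981 fits, over 14 values, and the cause was not tested. Among them was Igf2 for EtOH against Ctrl mice, at 0.55 in the main fit, the largest difference of that comparison. For EtOH against Ctrl mice, Col1a2 was -0.0235 with quantile normalization, -0.0104 with weights and -0.26 with the choroid plexus covariate. Lum was -0.0291, -0.0431 and -0.16 under the same settings. With that covariate Igf2 was -0.21 and Slc6a13 -0.15. For EtOH-UA against EtOH mice, Col1a1 was -0.0017 with a pseudocount of 0.01 and -0.0102 with upper-quartile scaling. Dcn was -0.006 with that scaling, -0.0226 with quantile normalization, -0.0761 with weights and -0.0018 with the covariate, and Igf2 was -0.0047 with quantile normalization. For EtOH-UA against Ctrl mice, Slc22a6 was -0.0015 with a pseudocount of 1 and -0.12 with the covariate. With 1 mouse left out, values that turned ranged as follows. For EtOH against Ctrl they were -0.23 to 0.24 for Aldh1a2, -0.11 to 0.18 for Col1a2, -0.17 to 0.0404 for Dcn, -0.0463 to 0.13 for Lum, -0.22 to 0.0897 for Ptgds, -0.31 to 0.0617 for Slc22a6 and -0.0703 to 0.20 for Slc6a13. For EtOH-UA against EtOH they were -0.0758 to 0.13 for Col1a1, -0.0711 to 0.0969 for Dcn and -0.18 to 0.26 for Igf2, and for EtOH-UA against Ctrl -0.18 to 0.0113 for Col3a1, -0.16 to 0.0499 for Dcn and -0.062 to 0.28 for Slc22a6. The median r among the 36 pairs without Dcn was 0.65 to 0.74 under other settings and 0.68 to 0.76 with 1 mouse left out. At this depth, Col3a1 and other genes below 1 FPKM rest on few fragments. No paired analysis was possible because the columns carry mouse numbers that match no replicate number of the labels.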
